A study of Danio rerio with 12 samples.

Results

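The RNA of whole zebrafish larvae labelled IC was compared with that of untreated control larvae across all genes, family by family and tissue by tissue. Both pools were larvae of the line Tg(fli:EGFP), whose vessels carry a green fluorescent protein driven by a fli promoter, taken at 120 hours after fertilization. The IC pool is, by elimination among the control, iron and nanoparticle conditions that the protocol names, the iron group. The labels name neither the iron compound nor its dose or duration. The controls received no treatment that the labels name. Each condition was 1 poly(A) RNA library from 20 pooled embryos, read on 4 lanes of a sequencing run, so that 8 of the 12 samples of the series enter the comparison as 2 libraries. The lanes of a library repeat the same RNA and are no replicates. No difference below therefore has a replicate check or a test, and a value called higher or lower is so in 1 library against another. Genes were chosen by level alone. Of 19983 genes in the table, 16293 had at least 1 CPM (read counts scaled to library size) in the IC or the control library, 428 of them in the IC library only and 569 in the control library only.

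At this stage the larva swims, its heart beats, its liver and pancreas secrete, and cartilage forms most of its head skeleton. Iron is needed for haem and for the iron-sulphur clusters of the respiratory chain, and free iron is toxic, so cells bind it in ferritin and the liver hormone hepcidin limits its release into blood. Because the RNA is of whole bodies, fewer cells of a type and less RNA per cell cannot be told apart in any value below.

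The IC library had 48283541 reads and the control library 84043873, with 11847840 to 12239616 and 20606371 to 21329490 per lane. Markers of several organs were found in both libraries. The heart light chain MYL7 had 12.13 CPM in IC and 6.70 CPM in control, and the hepatocyte gene fabp10a 65.8 and 160.1 CPM. The gut villus gene VIL1 had 193.4 and 130.3 CPM, whereas a second gut marker, FABP2, had 19.8 and 146.3 CPM. The erythroid haem enzyme alas2 had 106.5 and 85.8 CPM. The 10 genes with the most reads took 14.8% of the reads in IC and 11.1% in control. Lanes differed little within a library for most genes. Among 10637 genes with at least 10 CPM, 84 had a lane more than 2-fold above another lane of the same library.

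Genes were counted as higher or lower where the IC and control levels were at least 2-fold apart and the 95% counting interval of their ratio excluded equality. By that rule 4800 genes differed, 29.5% of those tested, of which 2336 (14.3%) were higher and 2464 (15.1%) lower in IC. These shares are the background for every list below. In any list, a member that reached the level limit in 1 library only can pass the rule only towards that library. The median log2 fold of IC over control was 0.00167 over all genes, with quartiles at -0.66 and 0.64. That median and the near-even split of higher and lower genes are largely set by the library scaling, which centres the typical gene near equality. At least 4-fold apart were 305 higher and 486 lower genes, at least 8-fold 47 and 123, and at least 16-fold 13 and 31. Of the 4800 genes, 4767 had the same direction in all 4 lanes and 4746 had lane values that did not overlap between the libraries. Lanes repeat the same RNA, so these counts show sequencing spread only and are no support for a difference between conditions. Genes that did not pass the rule could have lanes apart too, as RPS6 did at a log2 fold of -0.08. The same shares over all genes tested are not given here.

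Among 117 genes above 1000 CPM in the higher library, 26 were higher and 33 lower in IC, and among 1986 genes between 100 and 1000 CPM the counts were 444 and 313. The 5656 genes under 10 CPM had 697 higher and 919 lower. A larger part of the genes above 100 CPM passed the rule than of those below.

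Sorted into 81 lists by function and tissue, 3276 of the tested genes had a place. The lists with the highest medians held genes of the matrix between cells, above all of cartilage. Those with the lowest held genes of the ribosome, the respiratory chain, the liver and the exocrine pancreas. Some lists share genes, and a shared gene is counted in each of them.

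**Figure D1:**
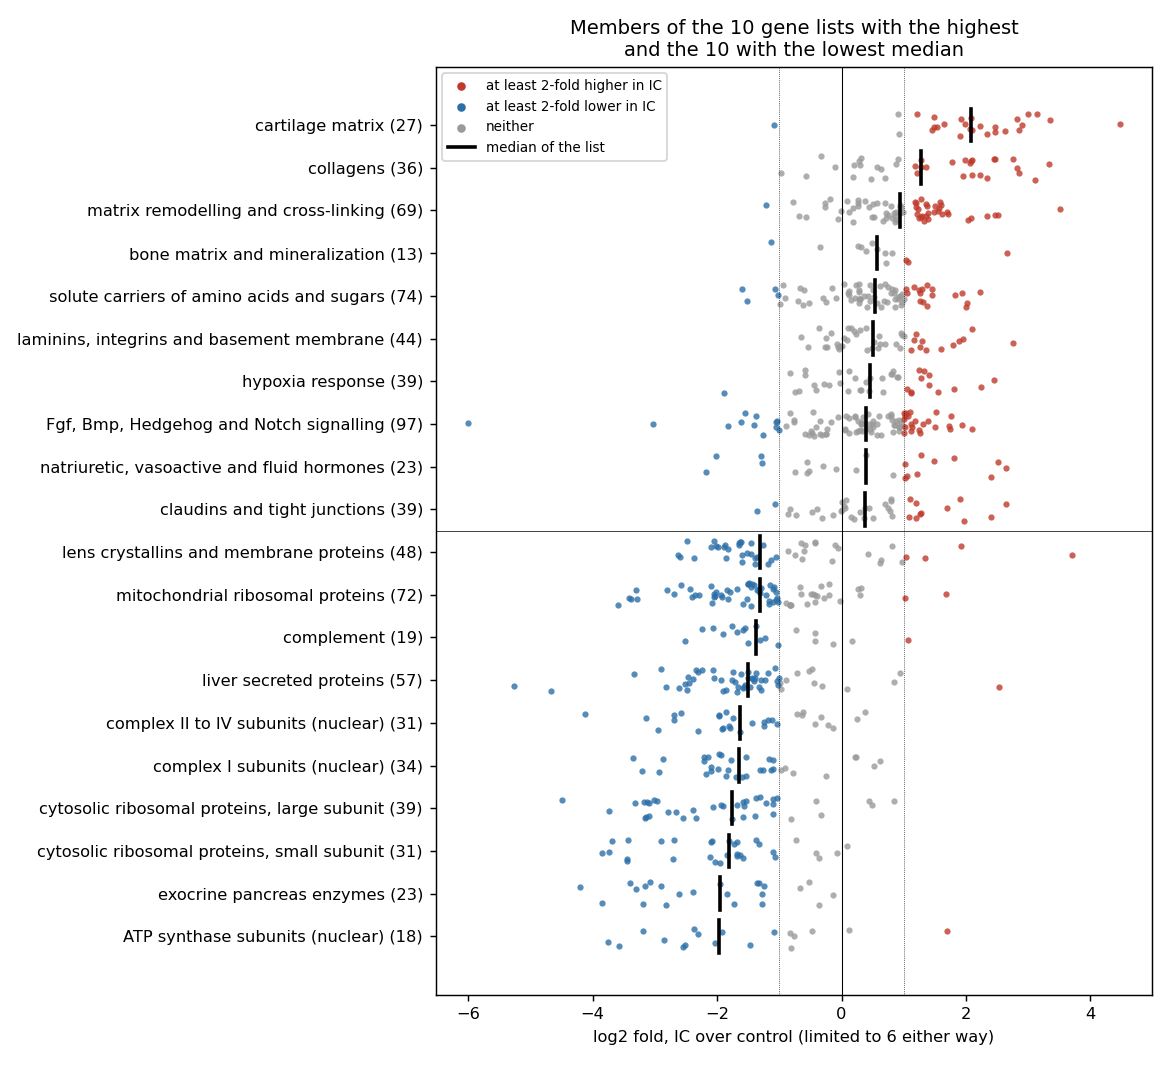
Log2 folds of IC over control (horizontal axis) for each tested member of 20 gene lists of at least 10 members, with the number of members in brackets. Each point is 1 gene, coloured by whether it passed the 2-fold rule, and the black bar is the list's median, which runs from 2.08 for cartilage matrix to -1.98 for ATP synthase.

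Cartilage genes were the group farthest above control. Of 27 tested members (29 in the table), 24 were higher in IC and 1 lower, with a median log2 fold of 2.08, and together they took 1.05% of the reads in IC and 0.213% in control. COL2A1, the main fibrillar collagen of cartilage and notochord sheath, had 4499, 4471, 4537 and 4465 CPM in the IC lanes and 808, 822, 809 and 811 CPM in the control lanes. Its lanes lay far apart between the libraries and close together within each, and the log2 fold was 2.47 (95% counting interval 2.46 to 2.48). The lectin gene CLEC3A, which is made in cartilage, had 44.3 to 47.5 CPM in IC and 1.972 to 2.201 CPM in control, the list's largest log2 fold at 4.47.

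The matrix adaptor gene MATN3 (ENSDARG00000069245) had 413 to 423 CPM in IC and 39.1 to 42.7 CPM in control. A row of the same symbol (ENSDARG00000069265) was higher by less, with 10.5 and 3.72 CPM. Genes of the large cartilage proteoglycan, acanb and acana, had log2 folds of 3.14 and 2.90. For acanb the control lanes ranged from 1.74 to 5.20 CPM, against 21.2 to 27.0 CPM in IC. The link protein gene HAPLN1, which ties that proteoglycan to hyaluronan, was at 2.34, and the small leucine-rich proteoglycan epyc at 2.62. Structural and regulatory genes of cartilage did not have like values. SOX9, the transcription factor that turns on cartilage collagen genes, had 158.3 CPM in IC and 84.7 CPM in control, a log2 fold of 0.90 that did not reach the limit. RUNX3, a transcription factor of maturing cartilage, was higher at 1.64. The lower member, ucmaa, was near the level limit, with 0.492 and 1.07 CPM.

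Collagens beyond cartilage were higher too. Of 36 tested collagen genes, 7 of which are also on the cartilage list, 21 were higher in IC and 0 lower, with a median log2 fold of 1.27. The list took 1.51% of the reads in IC and 0.568% in control. Highest were the chains of the short network collagen VIII, col8a1a with 68.4 to 72.3 CPM in IC and 6.36 to 7.49 CPM in control, and COL8A2 with 76.2 and 8.84 CPM. The basement membrane chains COL4A1 and COL4A2 had log2 folds of 2.75 and 1.95, and col4a6 had 677.3 CPM in IC and 158.8 CPM in control. Hypertrophic cartilage collagen, COL10A1, was at 2.09. The fibrillar collagens of bone and skin differed little. COL1A1 had 1160 to 1175 CPM in IC and 934 to 955 CPM in control, and COL1A2 had 907.5 and 612.5 CPM. Their lanes did not overlap, but neither gene reached the 2-fold limit.

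**Figure D2:**
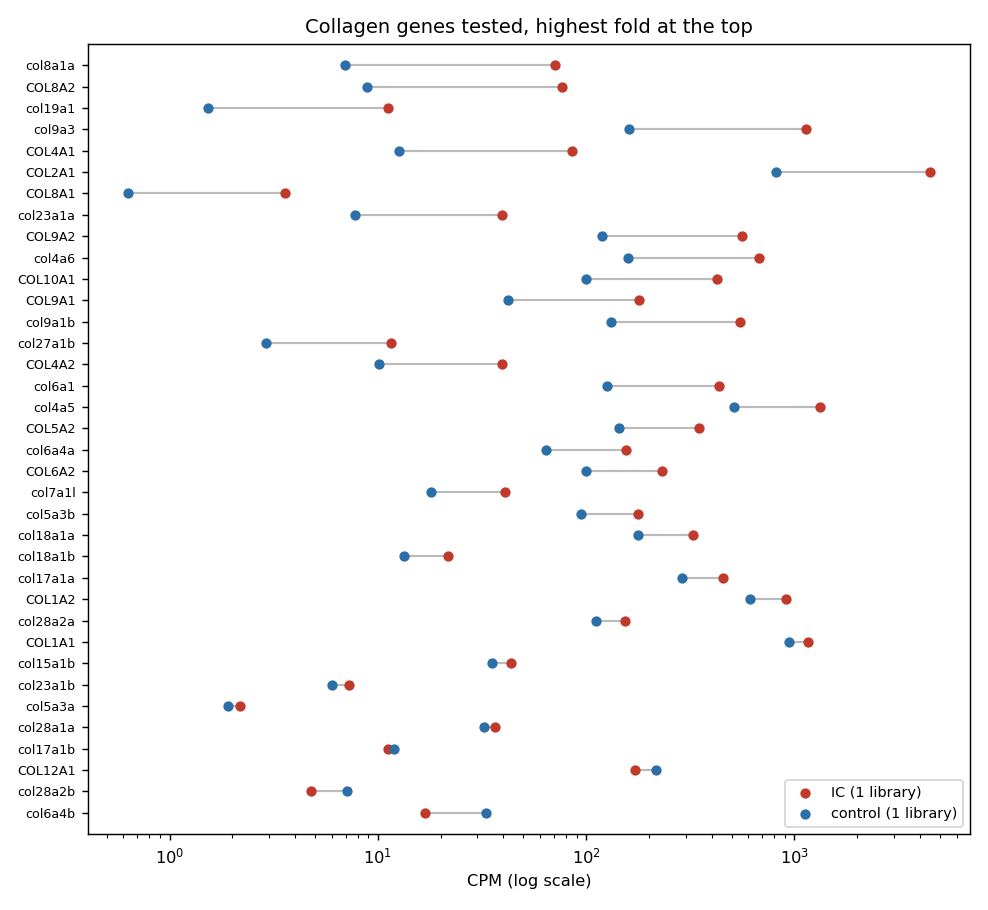
Levels of the 36 tested collagen genes in the IC library (red) and the control library (blue), in CPM on a log axis, with 1 library per point and the highest fold at the top. The cartilage, network and basement membrane collagens have the red point far to the right, while COL1A1 and COL1A2 are close to equal and the bottom 4 genes have the blue point to the right.

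Enzymes that remodel and cross-link the matrix had 30 of 69 tested members higher and 1 lower (median 0.93). LOXL4, which oxidizes lysines of collagen and elastin for cross-links, had 71.4 CPM in IC and 6.21 CPM in control, a log2 fold of 3.52. The elastin gene elnb was at 2.52, the corneal and skin proteoglycan LUM at 2.47 with 1047 and 189.3 CPM, and the collagen-modifying partner p3h4 at 2.33. Laminins, integrins and basement membrane genes, 4 of which are also on the collagen list, had 12 of 44 tested members higher and 0 lower (median 0.50). An integrin beta 1 row, ITGB1, had 304.5 CPM in IC and 82.4 CPM in control. Bone genes, 2 of which are also on the collagen list, had 3 of 13 tested members higher and 1 lower (median 0.57). Among them PANX3, a channel of bone and cartilage cells, had 8.99 and 4.35 CPM, while the matrix gene SPARC had 1259 and 895.3 CPM.

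Grouped by symbol alone, with no list, 190 roots had at least 10 tested members. Among them COL had the highest median, at 1.27, and ADAMTS, secreted proteases that cut proteoglycans and collagen propeptides, the next, at 1.2, with 9 of 17 members higher and 0 lower. Integrin alpha genes (ITGA) had 4 of 10 higher and matrix metalloproteases (MMP) 4 of 14, with 0 lower in either. At the other end stood FABP, RPL and RBP, with medians of -2.23, -1.76 and -1.75. The COL and RPL roots largely repeat the lists of collagens and of large-subunit ribosomal proteins and are no separate support for them. Integrins and enzymes of the matrix are also kinds of gene in the lists above. The ITGA, ADAMTS and MMP roots can share genes with those lists and are no separate support either.

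Growth factor signalling genes were more often higher than lower. The Fgf, Bmp, Hedgehog and Notch list had 23 of 97 members higher and 12 lower (median 0.40). FGFR2, a receptor for fibroblast growth factors, had 847.8 CPM in IC and 197.6 CPM in control. GDF5, a joint-forming factor of the Bmp family, had 7.51 and 2.21 CPM, and the ligands FGF18 (1 row) and BMP6 had log2 folds of 1.73 and 1.52. The lower members included the Notch-pathway repressors HES6 and HES2 (1 row each), her2 and her8a, at -1.55, -1.82, -1.41 and -1.06. Wnt genes had 10 of 54 tested members higher and 4 lower (median 0.35), with the secreted inhibitor SFRP1 (1 row) at 1.80 and the receptors FZD1 and FZD4 both at 1.55. RSPO2, which amplifies Wnt signals, was lower at -1.11. Immediate early genes went both ways, 9 of 31 higher and 8 lower (median -0.10), with FOSL1 at 1.76 and CCN1 at 1.43, and a MYC row at -2.15 and ier2b at -1.69.

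Genes of membrane transport and excitability shared the upper side. Amino acid and sugar carriers had 17 of 74 tested members higher and 4 lower (median 0.54). SLC43A2, a carrier of large neutral amino acids, had 785.5 CPM in IC and 193.2 CPM in control, and the creatine carrier SLC6A8 and the serotonin carrier SLC6A4 had log2 folds of 2.0 and 1.93. Voltage-gated and other ion channels had 33 of 141 tested members higher and 12 lower (median 0.35). The potassium channels kcna6a, KCNK6 and kcnj12b were at 3.07, 2.72 and 2.58, and the lower members included a row of the accessory subunit CACNG7 at -1.63. Neurotransmitter receptors had 14 of 109 tested members higher and 2 lower (median 0.19), which is about the background share of higher genes. Among them CHRNG and CHRNB1, acetylcholine receptor subunits of muscle, had 1.53 and 1.36. Claudins and tight junction genes had 11 of 39 tested members higher and 2 lower (median 0.37). Among the claudins cldnf had 163.2 CPM in IC and 26.0 CPM in control, and the junction scaffold TJP1 was lower at -1.36.

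Ribosomal protein genes were lower in nearly every case. Of 31 genes of the small subunit 26 were lower in IC and 0 higher (median -1.81), and of 39 of the large subunit 33 were lower and 0 higher (median -1.76). The small-subunit list took 0.55% of the reads in IC and 1.55% in control, and the large-subunit list 1.597% and 2.86%. RPL38 had 15.2 to 17.8 CPM in IC and 365 to 376 CPM in control, a log2 fold of -4.49. RPL13A had 232.1 and 2306 CPM, and RPS28 had 5.90 and 85.9 CPM. Members did not share 1 value. RPLP0, which forms the base of the ribosomal stalk, had 6629 to 6702 CPM in IC and 3698 to 3716 CPM in control, a log2 fold of 0.85, and RPS6 had a log2 fold of -0.08.

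**Figure D3:**
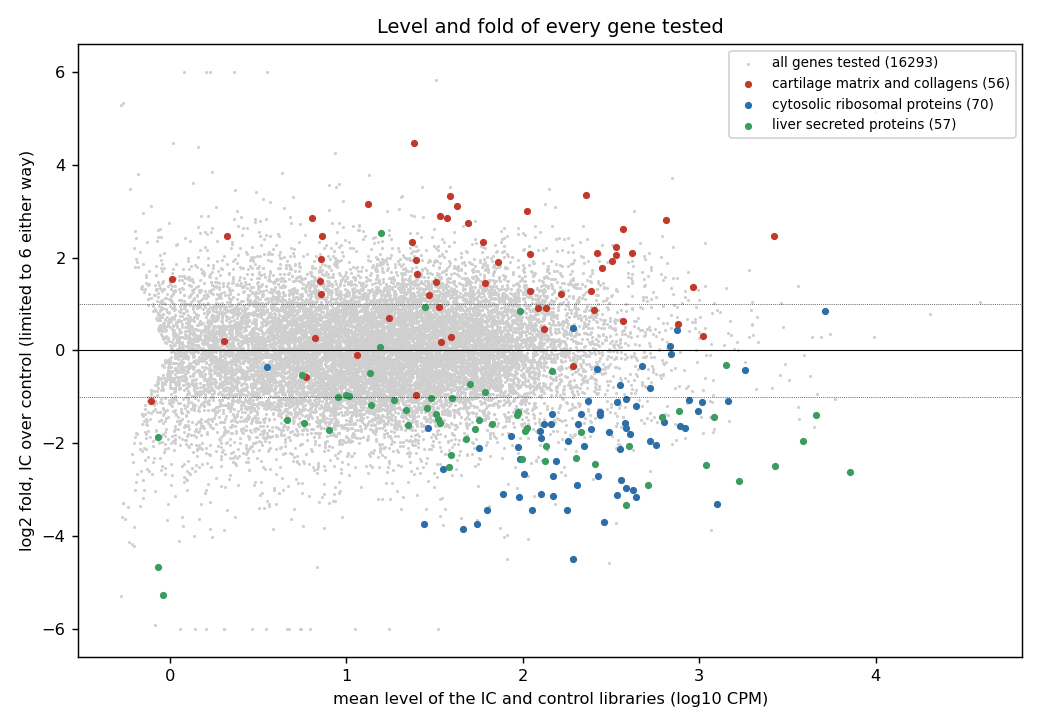
Log2 fold of IC over control (vertical axis) against the mean level of both libraries in log10 CPM, for 16293 genes in grey, with 56 cartilage matrix and collagen genes in red, 70 cytosolic ribosomal protein genes in blue and 57 liver secreted proteins in green. Red points lie mostly above and blue and green points mostly below the dotted 2-fold lines, at levels spread over more than 1 unit of the log10 axis.

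Other genes of protein synthesis were lower by less. Translation initiation factors had 16 of 38 tested members lower and 1 higher (median -0.78). The higher one was EIF1B, of the family that helps the ribosome pick the start codon, with 19116 to 19460 CPM in IC and 541.8 to 564.7 CPM in control, the highest log2 fold of the named genes with reads in both libraries, at 5.13. EIF3H, EIF3K and EIF3F, subunits of the factor that holds the small subunit, were at -1.91, -1.80 and -1.55. Elongation and release factors had 4 of 15 lower and 2 higher (median -0.47). The elongation factor eef1a1l1 had 3840 CPM in IC and 7980 CPM in control, while gspt1, a release factor, was at 1.55. Aminoacyl-tRNA synthetases had 3 of 11 lower and 0 higher (median -0.68), with RARS1 at -1.72. Ribosome biogenesis genes had 6 of 23 lower and 1 higher (median -0.53), with NOP10, of the particles that modify ribosomal RNA, at -2.34.

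Subunit genes of the respiratory chain were mostly lower in the IC library, counted in 3 lists. Nuclear-encoded subunits of complex I had 26 of 34 tested members lower and 0 higher (median -1.64), those of complexes II to IV had 22 of 31 lower and 0 higher (median -1.63), and those of ATP synthase had 12 of 18 lower and 1 higher (median -1.98). Some lower rows of complex IV, of COX7A2 (0.098 CPM in IC and 2.16 CPM in control), COX5B and COX6A1, reached the level limit in control only. Such rows can only be lower, so the limit has a part in that count and median. ATP5MG, a small membrane subunit of ATP synthase, had 4.01 to 5.19 CPM in IC and 64.5 to 67.6 CPM in control. NDUFS6, an accessory subunit of complex I, had 11.5 and 117.5 CPM, and cox7b of complex IV 23.7 and 208.8 CPM. Within the same complexes other members differed little or went the other way. ATP5F1C, the rotor shaft of ATP synthase, had 1305 to 1325 CPM in IC and 400.5 to 413.0 CPM in control, a log2 fold of 1.70.

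The catalytic subunits ATP5F1A and ATP5F1B of ATP synthase had log2 folds of -0.82 and -0.76. NDUFS1 and NDUFV1, which carry electrons in complex I, had 0.62 and -0.25, and the core proteins UQCRC1 and UQCRC2 of complex III 0.37 and 0.26. None of these 6 genes, which were chosen after their values were seen, passed the rule. They are known to encode longer proteins than ATP5MG, NDUFS6 or cox7b, as RPLP0 does than RPL38. Transcript and protein lengths were not used here, and whether length had a part in these values was not tested.

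Genes encoded in the mitochondrial genome had 7 of 13 tested members lower and 0 higher (median -1.03), and took 1.21% of the reads in IC and 2.91% in control. MT-CO2 and MT-CO3 of complex IV had log2 folds of -1.65 and -1.49, and mt-atp8 had 0.73. Mitochondrial ribosomal proteins had 49 of 72 tested members lower and 2 higher (median -1.31), with MRPL14 at -3.59 and mrps21 at -3.42, and mrpl30 at 1.67. Import and assembly genes had 10 of 33 tested members lower and 1 higher (median -0.60). The small translocase parts tomm6 and TIMM9 were at -3.07 and -2.51, and MFN2, which fuses mitochondrial outer membranes, was higher at 1.84. Mitochondrial carriers differed from these lists, with 9 of 50 higher and 3 lower (median 0.26). A row of the carrier SLC25A32 had 274.3 CPM in IC and 32.0 CPM in control, while SLC25A5, an ADP and ATP exchanger, had 543.1 and 1850 CPM.

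Genes of protein breakdown differed by kind. Proteasome genes had 21 of 41 tested members lower and 1 higher (median -1.08), among them the activator PSME1 at -3.26, the assembly factor POMP at -2.13 and the core subunits PSMB4 and PSMA3 at -2.04 and -1.91. A row of the nuclear activator PSME4 was the higher one, at 1.83. Ubiquitin ligases and deubiquitinases had 25 of 188 higher and 17 lower (median 0.10), close to the background. RNF170 and UBE2B had log2 folds of 2.68 and 2.39, and the cell cycle conjugating enzymes UBE2T and UBE2C -1.95 and -1.78. Lysosome genes had 5 of 49 higher and 11 lower (median -0.09), with the cathepsin ctslb.4 at 3.58 and rows of the sterol-binding NPC2 at -1.93 and -1.56. Autophagy and ferroptosis genes had 5 of 40 higher and 4 lower (median 0.32), with the lipid scramblase atg9b at 1.76 and the lipid peroxidase gpx4a at -1.85. Secretion and Golgi genes had 10 of 64 higher and 14 lower (median -0.20), with the coat subunit sec23a at 1.5 and SRP14, of the signal recognition particle, at -2.10.

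Cell division and RNA processing genes lay below control. DNA replication genes had 15 of 44 tested members lower and 3 higher (median -0.70). TYMS, which makes thymidylate, had 7.001 CPM in IC and 22.6 CPM in control, and pold4, a small polymerase subunit, was at -3.12. GINS4, of the replicative helicase, was higher at 2.27. Mitosis genes had 10 of 31 tested members lower and 0 higher (median -0.68), with nuf2 of the kinetochore at -2.20 and the kinase AURKB at -1.81. Spliceosome genes had 22 of 74 tested members lower and 3 higher (median -0.68), with LSM6 and SNRPG at -2.27 and -2.24 and the splicing factor srsf2b at 1.42. Chromatin regulators differed little, with 2 of 84 higher and 6 lower (median -0.22), among them TET2, which oxidizes methylated cytosine, at 1.09 and SMARCB1 at -1.72. Histone genes had 1 of 12 tested higher and 2 lower (median -0.16), and 21 of the 33 in the table were under the level limit. Hox genes had 14 of 44 tested members lower and 3 higher (median -0.45), with HOXD10 at -2.07 and HOXB9 at 1.37.

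Proteins that the liver secretes into plasma took a smaller share of the reads in IC. Of 57 tested members (68 in the table), 45 were lower in IC and 1 higher (median -1.51), and the list took 1.27% of the reads in IC and 5.07% in control. The lipoprotein gene apobb.1 had 2525 to 2566 CPM in IC and 6609 to 6634 CPM in control. The small apolipoprotein apoc2, an activator of lipoprotein lipase, had 66.8 to 75.5 CPM in IC and 694 to 704 CPM in control, a log2 fold of -3.33. Lanes of these genes did not overlap. Clotting genes were among them, with FGG, a fibrinogen chain, at 42.9 and 224.9 CPM and prothrombin, f2, at 51.0 and 134.7 CPM. The higher member was itih3a.2, of a family that binds hyaluronan, with 26.9 CPM in IC and 4.62 CPM in control, and F10, a clotting factor, had 123.4 and 68.8 CPM.

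Complement genes, 11 of which are also on the liver list, had 13 of 19 tested members lower and 1 higher (median -1.38), with c8b at -2.52 and c3a.1 at 154.3 CPM in IC and 645.1 CPM in control. Liver metabolic enzymes had 11 of 30 tested members lower and 0 higher (median -0.73). GNMT, which uses methyl groups to make sarcosine, had 8.555 CPM in IC and 57.1 CPM in control, and the urate-breaking uox 22.1 and 91.4 CPM. The secreted proteins thus had a lower median than the enzymes of the same organ. That difference was not tested.

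Exocrine and hormone genes were mostly lower, and genes of the gut lining mostly did not pass the rule. Exocrine enzymes had 19 of 23 tested members (32 in the table) lower and 0 higher, with a median of -1.95. The protease prss59.2 had 5.61 to 6.65 CPM in IC and 64.7 to 67.0 CPM in control, and a carboxypeptidase row, CPA1, had 4.21 and 38.01 CPM. Hormones of the islets and gut had 8 of 13 tested members lower and 0 higher (median -1.28), with insulin, ins, at 3.87 CPM in IC and 21.9 CPM in control, the satiety peptide CCK at 1.32 and 9.13 CPM, and pyya at 1.89 and 7.14 CPM. Another lower member, GCG, with 0.492 CPM in IC and 2.93 CPM in control, reached the level limit in control only. Intestinal epithelium genes had 5 of 23 tested members lower and 1 higher (median -0.31). FABP2, which binds fatty acids in enterocytes, was at -2.89, whereas the regulator cdx1b was higher at 2.03. Binding proteins of lipids and retinol shared this direction by symbol, since 9 of 11 FABP rows and 8 of 10 RBP rows were lower and 0 higher.

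Metabolic lists were split. Fat synthesis and lipid droplet genes had 4 of 26 higher and 4 lower (median 0.16), with the lipase lipea at 1.58 and the adipose fatty acid carriers fabp4b and fabp4a at -2.35 and -2.23. Cholesterol genes had 2 of 24 higher and 3 lower (median -0.15), with the receptor ldlra at 1.23. Fatty acid oxidation and peroxisome genes had 0 of 25 higher and 2 lower (median -0.36), HADH at -1.77 and catalase, CAT, at -1.75. Glycolysis genes had 3 of 30 higher and 7 lower (median -0.10). A row of the lactate exporter SLC16A3 had 79.2 CPM in IC and 12.3 CPM in control, a PKM row 959.8 and 322.6 CPM and GAPDH 2687 and 1302 CPM, whereas a TPI1 row and PGAM2 were at -1.56 and -1.45. Scaled to total reads alone, GAPDH was at 0.97 and no longer passed the rule. The citric acid cycle had 2 of 31 higher and 7 lower (median -0.24), with pdha1a, of pyruvate dehydrogenase, at 1.45 and SDHC at -2.59. This list shares 3 genes with that of complexes II to IV, SDHC among them.

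Genes that handle iron did not share 1 direction. Of 31 tested members 4 were higher in IC and 8 lower (median -0.12), near the background on the higher side. The hepcidin gene hamp had 1.496, 1.523, 1.94 and 2.11 CPM in the IC lanes and 14.5, 15.1, 16.4 and 15.3 CPM in the control lanes, a log2 fold of -3.10 (-3.44 to -2.81). Its lanes did not overlap, and it is made in liver, whose secreted genes were lower in the same library. The part of the liver genes in the hamp value was not tested. The ferritin heavy chain fth1a had 540.6 to 573.5 CPM in IC and 1484 to 1501 CPM in control, while another ferritin gene, FTH1, had 40.1 and 31.9 CPM. HMOX1, which breaks haem down and frees its iron, was lower at -1.64, as was HMOX2 at -1.45. Genes for making iron-sulphur clusters were lower for GLRX5 at -2.11 and BOLA3 at -1.68.

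On the higher side of the iron list were SLC39A14, an importer of iron, zinc and manganese, with 20.8 to 25.5 CPM in IC and 6.02 to 7.40 CPM in control, and BMP6, the ligand that induces hepcidin in mammals, with 9.93 and 3.44 CPM. The transcription factor atoh8 had 157.2 and 45.7 CPM. ID1, a target of Bmp signals, was lower at -1.22. The receptors that take up transferrin did not pass the rule, with tfr1a at 14.17 to 16.03 CPM in IC and 7.92 to 9.77 CPM in control, and tfr1b at 29.2 and 32.4 CPM. FBXL5, a sensor of iron that steers the decay of iron regulatory proteins in mammals, had 149.4 and 81.0 CPM.

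Haem and globin genes had 6 of 26 tested members lower and 1 higher (median -0.24). The lower ones included the globins hbae1.3, at 154.1 CPM in IC and 685.5 CPM in control, and hbae3, at 364.8 and 1092 CPM, whereas the haem enzyme CPOX had a log2 fold of 0.30. Erythrocyte markers, 4 of which are also on that list, had 2 of 15 higher and 4 lower (median 0.12), with the red cell regulator klf1 at 1.66. Copper, zinc and metallothionein genes had 3 of 28 higher and 5 lower (median -0.27), among them the copper chaperone atox1 at -2.91 and mtbl at -2.13, and slc39a1, a zinc importer, at 1.62.

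Immune genes were mixed. Macrophage and neutrophil markers had 3 of 27 higher and 8 lower (median -0.25), with cybb, of the oxidase of phagocytes, at 1.55 and the lysozyme lyz at -1.24. Inflammation genes had 8 of 44 tested members higher and 5 lower (median 0.27), and 56 of the 100 in the table were under the level limit. CXCL12, a chemokine that guides migrating cells, had 519 to 541 CPM in IC and 109 to 111 CPM in control, and its paralog cxcl12b had 73.6 and 19.5 CPM. The inhibitor nfkbiab was lower at -1.83. Interferon and finTRIM genes had 6 of 34 tested members higher and 1 lower (median 0.35), of 79 in the table, with irf1b at 1.68 and gbp1 at -1.86.

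Hypoxia-response genes had 12 of 39 tested members higher and 1 lower (median 0.46). A row of the secreted glycoprotein STC2 had 138.7 CPM in IC and 25.3 CPM in control, and the oxygen sensors EGLN3 and EGLN2 had 52.2 and 11.01 CPM and 17.7 and 6.69 CPM. BNIP3 and a BNIP3L row, which mark mitochondria for removal, were at 1.05 and 1.40, and BNIP3 no longer passed the rule without the first lanes (0.99) or scaled to total reads (0.97). Members that did not pass the rule included glycolytic enzymes and the factor itself. LDHA had 303.3 CPM in IC and 457.8 CPM in control, HK2 13.4 and 9.73 CPM, and HIF1A itself 336.9 and 310.4 CPM. VEGFA rows went apart, with 29.1 and 13.3 CPM in 1 row and 23.5 and 31.3 CPM in another.

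Antioxidant genes had 27 of 67 tested members lower and 8 higher (median -0.52). The thioredoxin-like TXNDC17 and cytosolic txnb were at -2.25 and -1.84, while mitochondrial TXN2 had 256.0 CPM in IC and 58.0 CPM in control and a row of the thioredoxin inhibitor TXNIP had 721.5 and 223.3 CPM. Heat shock genes and chaperones had 9 of 79 higher and 14 lower (median -0.25), with DNAJA3 at 1.68 and DNAJC19 at -2.57, both mitochondrial. Genes of the unfolded protein response had 1 of 26 higher and 4 lower (median -0.26), with XBP1 at 1058 CPM in IC and 360.8 CPM in control, and DDIT3 at -1.04. Targets of p53 and apoptosis genes had 4 of 31 higher and 6 lower (median -0.17). CCNG1, a p53-induced cyclin, had 2934 to 2955 CPM in IC and 889 to 896 CPM in control, while GADD45A rows were at -1.69 and -1.65.

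Detoxification lists differed, with a larger share of lower genes among cytochrome P450 genes than the 15.1% over all genes tested. Cytochrome P450 genes had 7 of 62 higher and 14 lower (median -0.22), with CYP26B1, which degrades retinoic acid, at 1.84 and CYP1A1, induced through the aryl hydrocarbon receptor, at 3.29 to 5.59 CPM in IC and 21.4 to 23.3 CPM in control. Conjugation enzymes and drug transporters had 8 of 59 higher and 7 lower (median -0.07), close to the background. The transporters abcc3 and abcg2c were higher at 1.27 and 1.16, and the sulphotransferases sult3st2 and sult6b1 lower at -1.83 and -1.74.

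Heart genes differed in both directions. Of 29 members, 6 were higher in IC and 6 lower (median 0.07). nppa, a peptide of stretched atria, had 41.2 to 45.6 CPM in IC and 6.63 to 8.04 CPM in control, and nppb 5.04 to 6.89 and 0.889 to 1.28 CPM. Its relatives nppc and nppal were lower, at 2.203 and 9.02 CPM and at 0.472 and 2.25 CPM. The Z-disc gene tcap and the giant spring TTN were at 2.37 and 1.94, and the troponin TNNC1 and light chain cmlc1 at -1.74 and -2.67. RNA of whole bodies does not show which muscle the reads of tcap and TTN came from, and these values are not specific to the heart. Among cardiac myosin heavy chains MYH7 had 15.6 CPM in IC and 10.6 CPM in control and did not pass the rule, which it did at 1.04 without the first lane of both libraries. Calcium and conduction genes of the heart had 2 of 11 higher and 0 lower (median 0.35), with the potassium channel kcnq1.1 at 7.16 and 2.26 CPM.

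Vasoactive and fluid hormone genes, 4 of which are also on the heart list, had 10 of 23 tested members higher and 4 lower (median 0.39). ramp2, which makes a receptor respond to adrenomedullin, had 132.7 to 138.2 CPM in IC and 20.5 to 22.9 CPM in control, a log2 fold of 2.64. Receptors were higher, with NPR3, which clears natriuretic peptides, at 84.1 and 29.9 CPM, the endothelin receptors EDNRA and an EDNRB row at 1.21 and 1.81, and AGTR2 at 1.06 (0.99 and not past the rule when scaled to total reads alone). The precursors of circulating hormones made in the liver were not, with agt at 49.6 CPM in IC and 83.1 CPM in control and kng1 at -1.29. Endothelial and vessel genes had 7 of 36 higher and 5 lower (median 0.27), with the junction gene cdh5 at 2.0, the receptor KDR at 1.58 and the smooth muscle actin acta2 at -1.16. The scavenger receptor stab2 was lower at -2.67, but 1 IC lane stood at 13.89 CPM and the others at 3.53 to 4.57 CPM, and without that lane the log2 fold was -3.35.

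Skeletal muscle genes, which took 9.92% of the reads in IC and 6.59% in control, divided by protein. Of 47 tested members 12 were higher and 9 lower (median 0.27). Higher were the fast myosin heavy chain myhz1.1, at 5265 to 5288 CPM in IC and 2022 to 2040 CPM in control, the calcium store CASQ1 at 350.7 and 94.4 CPM, the Z-disc gene myot at 1.80 and the calcium channel CACNA1S at 1.69. Lower were the fast troponin TNNT3, at 299 to 318 CPM in IC and 1148 to 1197 CPM in control, TNNI2 and TNNI1 rows at -1.70 and -1.52, and the calcium buffer pvalb4 at -1.99. The member with the most reads, the parvalbumin pvalb1, had 52393 CPM in IC and 25340 CPM in control, so parvalbumin paralogs lay on both sides, though pvalb1 missed the 2-fold limit when scaled to total reads (0.98). Most of the difference between the libraries in the list's share of reads came from pvalb1 alone. The hair cell parvalbumins pvalb9 and pvalb8 were lower at -4.02 and -1.88. Of the 18 ear genes tested, tmie also passed the rule, lower at -2.17 with 1.06 CPM in IC and 4.89 CPM in control. The other ear genes did not pass it.

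**Figure D4:**
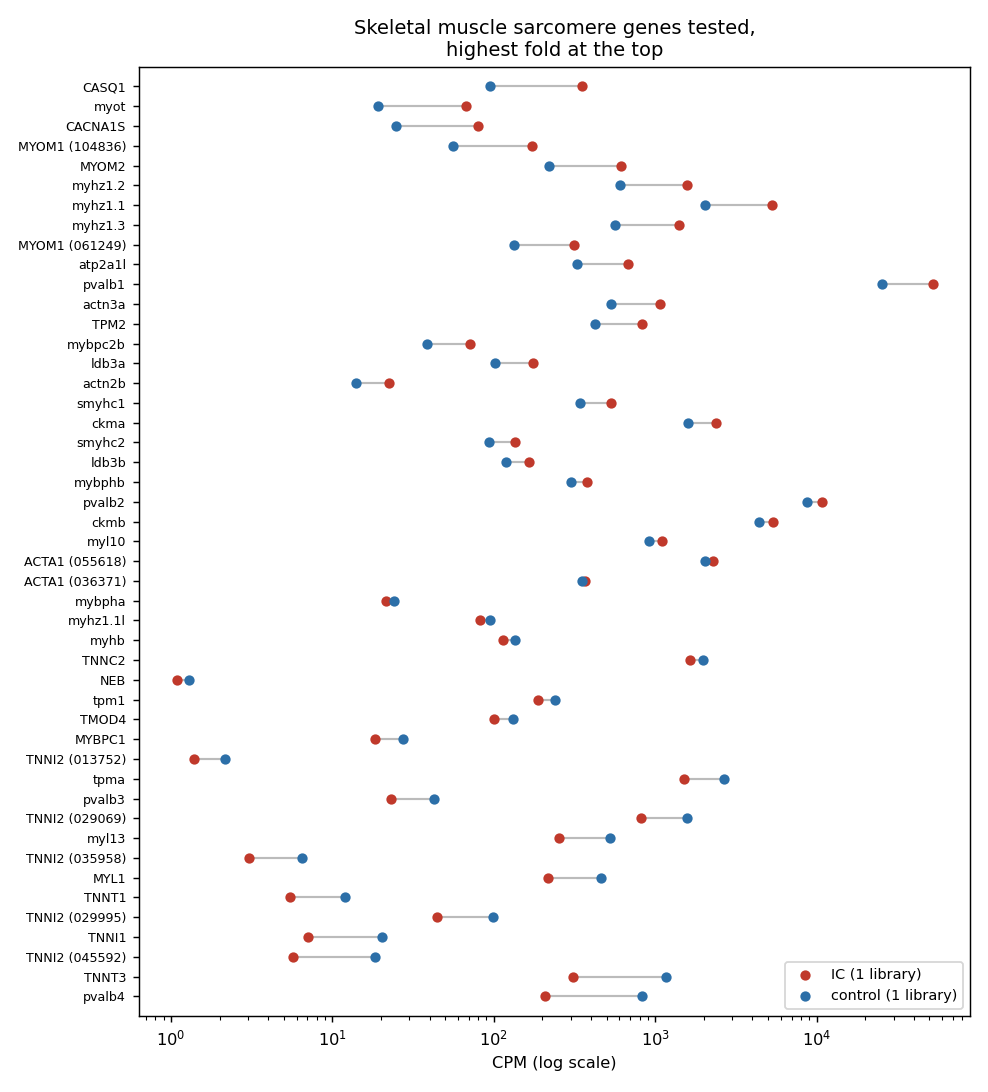
Levels of the 47 tested skeletal muscle sarcomere genes in the IC library (red) and the control library (blue), in CPM on a log axis, with 1 library per point and the highest fold at the top. Rows that share a symbol carry the last digits of their identifier. Myosin heavy chains, myomesins and CASQ1 are at the top with red to the right, and troponins, light chains and pvalb4 at the bottom with blue to the right.

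Eye genes were more often lower than higher, with a few crystallins and membrane proteins apart. Lens genes had 28 of 48 tested members (62 in the table) lower and 4 higher (median -1.31). The gamma crystallins crygm2d4 and crygm2d3 were at -2.63 and -2.60, whereas the beta crystallin CRYBA4 had 1286 to 1309 CPM in IC and 96.1 to 102.8 CPM in control and rows of the water channel MIP had log2 folds of 1.92 and 1.33. Photoreceptor genes had 18 of 52 tested members lower and 1 higher (median -0.49). The cone subunit pde6ha had 8.69 to 10.8 CPM in IC and 138 to 141 CPM in control, and rbp4l was at -2.31. The short-wavelength opsin OPN1SW had 3509 CPM in IC and 2484 CPM in control, while the red opsin opn1lw2 had 324.8 and 957.6 CPM.

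Nervous system genes differed by class. Neuropeptides had 16 of 31 tested members lower and 1 higher (median -1.02), with pmchl at -3.78, galanin, GAL, at -2.56 and cart4 at -2.55. Several of the lower members, among them pmchl, GAL, NPY and oxt, reached the level limit in the control library only. In IC pmchl had 0.747 CPM and GAL 0.983 CPM. Members that enter in this way can only be lower, so the level limit has a part in this count and median. Neuron identity and axon growth genes had 10 of 33 tested members lower and 1 higher (median -0.65), with the synuclein sncb at -2.45 and NEUROD6 at 1.40. Synaptic vesicle genes stayed near equality, with 4 of 71 higher and 11 lower (median -0.06), among them sv2ba at 1.16 and RAB3C at -1.84. Glial and myelin genes had 3 of 25 higher and 2 lower (median -0.03). The myelin genes mbpa and cnp were among the higher ones, mbpa with 115 to 118 CPM in IC and 25.5 to 27.5 CPM in control, while its paralog mbpb had 91.0 and 160.8 CPM. OLIG2, of the precursors of myelin-forming cells, was lower at -1.5. Glucocorticoid-responsive and circadian genes had 0 of 28 higher and 3 lower (median 0.01), among them the clock gene rorab at -2.25. Pituitary, thyroid and interrenal genes had 2 of 14 higher and 3 lower (median 0.01), with the steroid enzyme CYP17A1 at 1.0, a call lost under total reads (0.93) and without 1 of 2 lane pairs (0.96 and 0.93).

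Skin genes differed in both directions. Keratins and epidermal genes had 3 of 31 higher and 6 lower (median -0.11) and took 4.11% of the reads in IC and 3.49% in control. The keratin krt4 had 25649 CPM in IC and 14904 CPM in control, a log2 fold of 0.78 that did not pass the rule. The larger share of the list in IC came from krt4, and the other members together took a smaller share in IC than in control. cyt1, another epidermal keratin, had 1759 to 1860 CPM in IC and 352.0 to 374.6 CPM in control, and krt5 2179 and 5096 CPM. Ionocyte and kidney genes had 3 of 23 higher and 3 lower (median -0.35), with the salt carrier slc12a10.2 at 1.82 and rows of the ammonia channel RHCG at 1.5 and -3.19. Pigment cell genes had 2 of 19 higher and 2 lower (median -0.05), with pnp4a of iridophores at 1.31. Actin, tubulin and motor genes had 8 of 114 higher and 17 lower (median -0.11), with MYO1D at 1.5 and the actin-binding thymosins tmsb and tmsb1 at -2.28 and -2.11. Cilia genes had 5 of 76 higher and 10 lower (median -0.10), with TEKT4 at 1.69. Only 3 of 10 hatching gland genes were tested.

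Among single genes with at least 10 CPM, a symbol other than a clone or locus name and the same direction in every lane, EIF1B, CLEC3A, CRYBA4, ctslb.4 and LOXL4 were the 5 highest. After them came ppp1r27a, a phosphatase inhibitor subunit, with 253 to 266 CPM in IC and 22.3 to 23.7 CPM in control, then MATN3, col8a1a, DDR2, DGKG and acanb. Cartilage, collagen and cross-linking genes made up 6 of the 15 highest, counting acanb and COL8A2. DDR2, a collagen receptor, and DGKG, a lipid kinase, varied between lanes. DGKG had 21.1 to 55.9 CPM in IC and 0.889 to 11.7 CPM in control, and its log2 fold of 3.31 was 5.09 without the highest control lane.

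Lowest of the genes with reads in IC were xrra1, at 0.157 to 0.31 CPM in IC and 12.8 to 37.7 CPM in control, TAF8, DAP and nupr1b. DAP, named for its link to cell death, had 23.2 to 25.8 CPM in IC and 519 to 652 CPM in control, and the stress protein nupr1b 5.24 to 8.50 and 152 to 164 CPM. TAF8, of the general transcription machinery, had all of its IC reads in 1 lane, at 1.97 CPM, and 11.51 to 14.95 CPM in control. FABP1, RBP2 and pvalb9 followed, with RPL38, RPL36AL and RPS28, and RPL36AL had 149.4 CPM in IC and 2182 CPM in control.

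**Figure D5:**
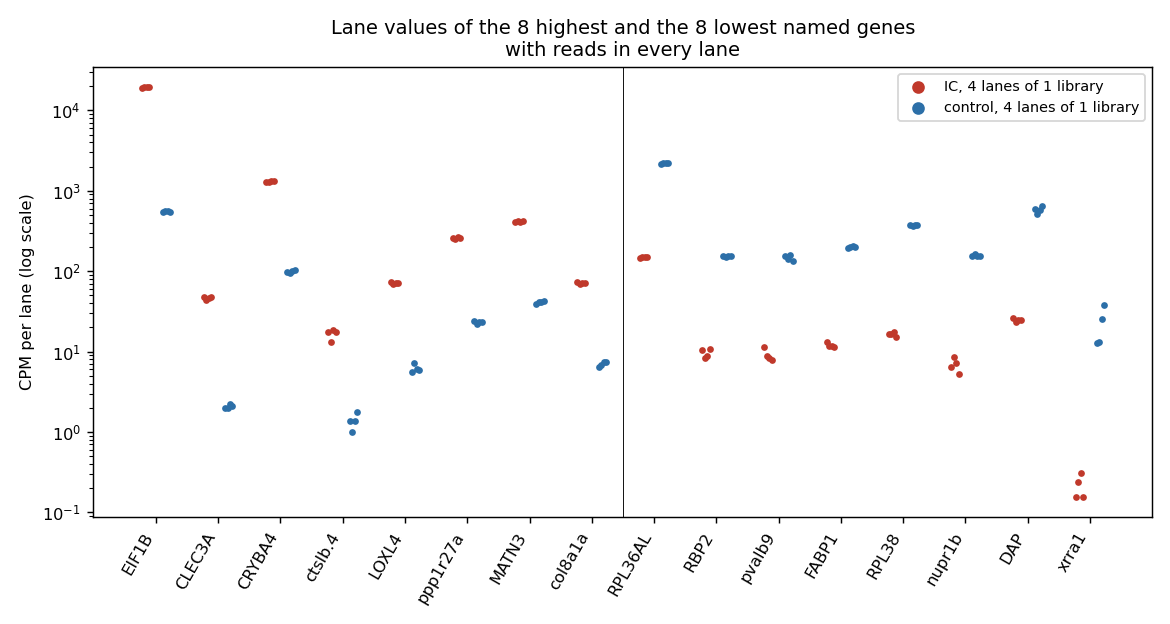
Levels per lane, in CPM on a log axis, of 16 named genes with reads in all lanes, the 8 with the highest and the 8 with the lowest log2 fold, with IC lanes in red left of control lanes in blue. For all 16 genes the lanes of IC and control do not overlap. This largely follows from the choice of extreme folds with the same direction in every lane. The gene xrra1 has the widest spread between control lanes.

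Some genes had reads in 1 library only. With 0 reads in IC and a bound of at least 2-fold there were 14, and with 0 reads in control 7. Against a floor of 3 reads in the IC library, which is 0.059 CPM, the simple-epithelial keratin krt18a.1 was at least 1123-fold lower, with 59.3 to 69.7 CPM in control. The glutamate dehydrogenase glud1a was at least 594-fold lower, larp1b at least 210-fold, pvalb7 at least 189-fold and the division motor KIF23 at least 186-fold. A row of the Bmp receptor BMPR1A was at least 68.7-fold lower. Conversely PRKG1, a cyclic GMP kinase, was at least 219.7-fold higher, with 7.08 CPM in IC and 0 reads in control. No list median changed when these bounds took the place of the fitted folds. No list held more than 1 such gene, so a median could hardly move and this is no check of the lists. Estimated counts of 0 beside many reads in the other library are uncertain for these genes, several of which most cells use.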

How the data were processed

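Per the labels' protocols, poly(A) RNA of 20 pooled embryos per condition gave 1 library each, read on 4 lanes of a NextSeq 500. The deposited table holds unnormalized estimated counts, as whole numbers, for each gene and lane. The submitters' processing notes name the build GRCz11, DESeq2 1.34.0, Salmon 1.6.0, FastQC and R 4.1.2, with roles, strand setting and any filters not given in the sources used here. Reads among similar transcripts are split by likelihood in Salmon, so values of gene duplicates are uncertain. Symbols came from a name table for 19182 of 19983 rows, and 2544 rows share a symbol with another. RefSeq synonyms served for names only.

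The 4 lanes of each library were summed. Levels are CPM of the library size times TMM factors (1.053 for IC and 1.107 for control, edgeR 4.0.16 in R 4.3.3, computed over the 3 libraries of the series). Log2 folds of IC over control used a prior of 2 counts, made proportional to library size. Counting intervals are exact 95% Clopper-Pearson intervals of the conditional binomial and cover counting error only, since reads are not independent molecules. Zero reads were set to a floor of 3 reads, 0.059 CPM in IC and 0.0322 CPM in control. With n = 1 library per condition no test was made. The computation of folds and calls was checked on counts simulated with counting error only. That check does not bear on variation between pools of larvae. Python 3.11.15, numpy 2.4.6, pandas 2.3.3, scipy 1.17.1 and matplotlib 3.10.9 were used.

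The members and the 81 gene lists were chosen with earlier results of these data known. Lists matched by symbol, synonym or symbol pattern, after removal of 68 wrong matches by name. Named genes were the 15 highest and 15 lowest with at least 10 CPM, a symbol other than a clone or locus name and the same direction in all lanes, up to 4 members per list and direction with at least 5 CPM past the rule, and fixed readouts. Not all are printed, and other members, given to show the spread of a list, were chosen after their values were seen. Alternatives were DESeq2 1.42.0 size factors, total reads alone, TMM over the 2 libraries only, no level filter (at least 1 read), 10 CPM, a prior of 0.5, a 4-fold limit, each lane left out and, added later, rows with shared symbols left out. Sequences and coordinates were not used here.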

Additional observations from a re-analysis of the deposited data

Results flagged for a closer look

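Lanes of a library repeat the same RNA, and 573 groups of 4 lanes of named genes were examined for a lane far from the other 3. Chance flags about 1 in 20 such groups, and 29 were flagged, which is about that share. The number of flags is therefore no more than chance would give. It does not tell whether any single lane lies within counting error. In 3 of the flagged groups the lane moved the fold by over 1.5 times. DGKG had 11.7 CPM in 1 control lane and 0.889 to 1.29 CPM in the others. TAF8 had 1.97 CPM in 1 IC lane and 0 in the others. The stab2 lane apart, of IC, had 13.89 CPM, with 3.53 to 4.57 CPM in the rest.

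Other lanes stood above their library's rest. In IC these were 34.46 CPM for CHRNG (31.07 to 31.25 CPM in the rest), 75.53 CPM for apoc2 (66.82 to 67.72), 9.705 CPM for kcna6a (7.293 to 7.477), 5288 CPM for myhz1.1 (5265 to 5268) and 24.67 CPM for tmsb (21.45 to 21.64). In control they were 5.20 CPM for acanb (1.74 to 1.88), 164.4 CPM for nupr1b (152.3 to 153.9), 9.77 CPM for tfr1a (7.92 to 8.13), 18.13 CPM for MYH7 (6.967 to 8.848), which lay above 3 of the 4 IC lanes, and 43.62 CPM for SFRP1 (41.6 to 41.93).

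Lanes below the rest in IC were 4.007 CPM for ATP5MG (5.088 to 5.195), 204.3 CPM for a MIP row (211.1 to 212.3), 6.362 CPM for RAB3C (8.658 to 8.976), 172.6 CPM for TET2 (177.6 to 178.6), 1.174 CPM for gbp1 (1.683 to 1.732) and 15.18 CPM for irf1b (16.43 to 16.69). In control they were 6.876 CPM for SLC16A3 (13.89 to 14.48), 44.77 CPM for atoh8 (45.88 to 46.1), 5.243 CPM for gbp1 (5.95 to 6.011), 374.9 CPM for gpx4a (380.4 to 381.3), 151.8 CPM for mbpb (163.4 to 164.3), 6.335 CPM for pyya (7.348 to 7.493), 17.27 CPM for slc12a10.2 (18.09 to 18.23) and 25.9 CPM for srsf2b (27.47 to 27.78). The hormone gene epoa had 0.236 CPM in 1 IC lane and 0.128 CPM in 1 control lane, with 0 in all others, and was under the level limit. The cause was not tested.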

How the results depend on the processing

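No paired analysis was possible because lanes with the same number are runs of separate single libraries and no test was made. Of 16293 tested genes 4800 were apart as reported, 2336 higher and 2464 lower in IC. A level limit of 10 CPM gave 3184 of 10637 tested, of which 1545 were lower. A 4-fold limit left 791 of 16293, with 305 higher and 486 lower. Leaving out each lane gave 4815 to 4843 genes, with 2338 to 2363 higher and 2463 to 2480 lower. Scaling by total reads alone gave 2066 higher and 2769 lower genes and put the median gene at -0.07, and DESeq2 size factors gave 2462 and 2375 with the median at 0.03. Without rows that share a symbol, a choice made after seeing the data, 4188 of 14042 tested genes were apart. Of 891 list medians under the alternatives 0 reversed, 2 moved beyond the interval over members, and 12 to 14 lists stayed at or below -1 (14 as reported) and 2 at or above 1. That interval reflects the spread among genes of a list, which are no replicates. All alternatives reuse the same 2 libraries, so medians that stay in place are no check of a difference between conditions. Of 3106 values of single named genes 3093 kept their side of the rule. Under total reads alone GAPDH (0.97), AGTR2 (0.99), BNIP3 (0.97), CYP17A1 (0.93), PANX3 (0.97) and pvalb1 (0.98) lost it. Without 1 lane number BNIP3 (0.99), CYP17A1 (0.93 to 0.96), PANX3 (0.97), her8a (-0.99) and ucmaa (-0.82) lost it, and MYH7 (1.04) gained it. Without 1 lane of 1 library the folds of DGKG, TAF8 and stab2 moved by over 1.5 times. Correction for protein length was not run, since no lengths were used here. With 1 library per condition, depth limits only counting error.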
